A study of Mus musculus with 6 samples.

Results

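The genes described here are the 150, of 12393 measured in mouse embryos, whose array signal ratio stood highest in mutant pool 1 and wild-type pools 1 and 2 relative to mutant pools 2 and 3 and wild-type pool 3. They were chosen from the measured values themselves. For each probe set that named 1 gene, the mean log2 value of the first 3 pools minus that of the other 3 was taken, all of the first 3 had to exceed all of the others, and the 150 genes with the largest difference were kept, 1 probe set per gene. The difference between these pools is therefore a description of the choice and carries no test. The pools came from embryos at 9.5 days post coitum, of which the mutants were Dll3neo/neo, also named Dll3-tm1Rbe/tm1Rbe, and the wild-types were Dll3+/+. The strain was given as c57bl/6 for both genotypes, each of the 6 biological pools was read on 1 Affymetrix MOE430A array, and the sources do not say how many embryos a pool held. The tissue was the trunk from otic level back to the youngest somite, without the presomitic mesoderm, the heart and the endoderm. The deposited numbers are ratios within a probe set, so a gene's pools could be compared with each other but its level could not be read. For the same reason markers of the labelled tissue could not be checked for presence. In such tissue fewer cells of a type and less RNA per cell cannot be told apart.

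Dll3 encodes a Notch ligand needed for regular somite segmentation. At this stage the mouse trunk holds epithelial somites that are starting to form sclerotome, dermomyotome and the first myotome, beside a neural tube with its first neurons. Adult functions such as drug metabolism in the liver, cytotoxic killing by lymphocytes, the cornified layer of the skin, hair keratin and smell belong to cell types that form later. On arrays of this kind a probe set is a group of short oligonucleotides that together read a stretch of a transcript, and different probe sets of a gene can read different transcript ends or variants.

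The early numbers of the pools described the split only in part. Both pools numbered 1 were on the high side and both numbered 3 on the low side, but of the pools numbered 2 the mutant was low and the wild-type high. Over the 150 members the median ratio was 1.16 in mutant pool 1, 1.11 in wild-type pool 1 and 1.08 in wild-type pool 2, against 0.926 in mutant pool 2, 0.848 in mutant pool 3 and 0.864 in wild-type pool 3. The median difference was 0.37 on the log2 scale, and the range was 0.34 to 0.68, which is 1.26-fold to 1.61-fold. Mutant pool 1 was the highest of all 6 pools for 86 members, wild-type pool 1 for 35 and wild-type pool 2 for 29. Mutant pool 3 was the lowest for 68 members, wild-type pool 3 for 61 and mutant pool 2 for 21. The replicates on a side were spread by a median SD of 0.10 on the high side and 0.11 on the low side (log2, 3 pools each).

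**Figure D1:**
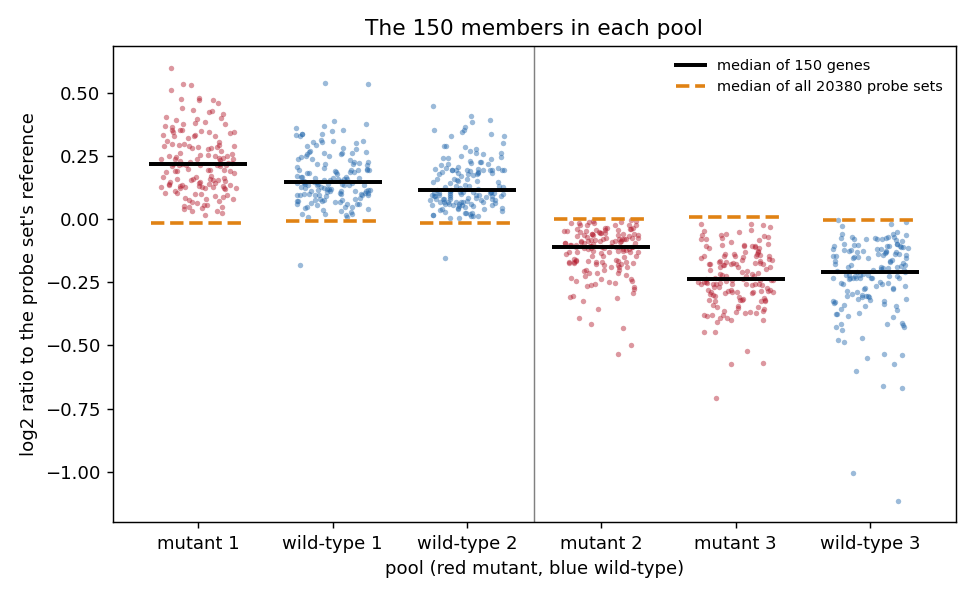
Log2 ratio of the 150 members in each pool (points, red for mutant and blue for wild-type), with their median (black) and the median of all 20380 probe sets that name 1 gene (dashed orange). The members' medians run from 0.22 in mutant 1 to -0.24 in mutant 3, and the medians of all probe sets lie within 0.02 of 0.

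The choice took the end of a continuous range. Of the 20380 probe sets, 2185 had all of the first 3 pools above all of the others, which is 10.7%, and 3396 had them all below, which is 16.7%. The 2185 probe sets belonged to 2026 genes. The last members inside the limit, Sec11a, Serpina6, Sema4b, C1qc and Khdrbs2, differed by 0.337 to 0.336 on the log2 scale. The next genes outside it, Entpd1, Slc25a53, Tbx4, Olfr480 and Fos, differed by 0.336 to 0.334.

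The members were sorted by function by hand, with their names in view, so the counts that follow are a description. They named 84 genes best known from 6 kinds of differentiated cells or organs, 14 genes of signalling and transcription in development, 30 genes of machinery used by most cells, and 22 genes with another or an uncertain role. Values by role are those of the chosen probe set unless another is named.

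Genes of liver, kidney and metabolism numbered 16. They included the cytochromes P450 Cyp2c54, Cyp2f2 and Cyp3a11, of an enzyme family that oxidises drugs, steroids and other compounds. Also among them was Cyp27b1, which activates vitamin D in the kidney. Plasma proteins were represented by Hc, which is complement component C5, Afm, a vitamin E carrier, and Serpina6, the corticosteroid carrier. Cyp3a11 had ratios of 1.28 in mutant pool 1, 1.10 in wild-type pool 1 and 1.04 in wild-type pool 2, against 0.742 in mutant pool 2, 0.916 in mutant pool 3 and 0.958 in wild-type pool 3. Mutant pool 1 was well above the other high pools, and mutant pool 2 was the lowest of all. Cyp2c54 had 1.26 in mutant pool 1, 1.24 in wild-type pool 1 and 1.07 in wild-type pool 2, against 0.926, 0.885 and 0.864 in mutant pool 2, mutant pool 3 and wild-type pool 3. Mlxipl, the glucose-sensing transcription factor also called ChREBP, and Oit3, a gene of hepatocytes, were both 0.42 on the log2 scale and were among the 20 members with the largest difference. Transporters of kidney and gut were present through Slc22a8 and Slc13a1. The median difference of these 16 genes was 0.38.

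Immune and blood genes numbered 17, with a median difference of 0.36. Gzma and Gzmb encode granzymes, the proteases by which cytotoxic lymphocytes kill, Klrg1 and Klrb1f are receptors of natural killer and T cells, and Il3 is a cytokine of activated T cells. Gzmb had 1.11 in mutant pool 1, 1.10 in wild-type pool 1 and 1.04 in wild-type pool 2, against 0.876 in mutant pool 2, 0.960 in mutant pool 3 and 0.738 in wild-type pool 3. Il3 had 1.27, 1.04 and 1.21 in the first 3 pools (mutant 1, wild-type 1, wild-type 2), against 0.957, 0.896 and 0.885 in mutant 2, mutant 3 and wild-type 3. The sides came closest in Gzmb at 1.04 in wild-type 2 and 0.960 in mutant 3, and in Il3 at 1.04 in wild-type 1 and 0.957 in mutant 2. C1qc, a complement subunit made by macrophages, Tlr5, the receptor for flagellin, and Laptm5, a lysosomal protein of blood cells, were at 0.34, 0.34 and 0.36.

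Genes of skin, hair and other surface epithelia numbered 21, with a median difference of 0.35. A separate list of surface ectoderm genes, given further below, held 0 members and had a median of 0.01, with 11 of 21 genes higher. Krtap15 and Krtap5-4 encode keratin-associated proteins of the hair shaft, Sprr2h and Lce1i proteins of the cornified envelope, and Edar the ectodysplasin receptor needed for hair follicles. Dlx3 is a homeobox factor of epidermis and placenta. Cdh17 and Cldn18 are adhesion and junction proteins of gut and stomach, and Bpifa2 is secreted in saliva. Gcnt2, a glycosyltransferase that branches sugar chains of the I blood group antigen, had the largest difference of all members. Its ratios were 1.39 in mutant pool 1, 1.45 in wild-type pool 1 and 1.07 in wild-type pool 2, against 0.926 in mutant pool 2, 0.613 in mutant pool 3 and 0.914 in wild-type pool 3. The value of 1.07 in wild-type pool 2 lay nearer to the low side than to the other 2 high pools. The other 6 probe sets of Gcnt2 were at -0.08 to 0.05 on the log2 scale, and 1 of them had the first 3 pools all below the rest. Krtap15 had 1.08, 1.08 and 1.15 in mutant 1, wild-type 1 and wild-type 2, against 0.924, 0.819 and 0.767 in mutant 2, mutant 3 and wild-type 3.

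Genes of neurons, synapses and retina numbered 23, with a median difference of 0.36. Receptor and transporter genes were Chrnb2 and Chrnb3 (nicotinic acetylcholine receptor subunits), Gabrq (a GABA receptor subunit), Galr2 (a galanin receptor) and Slc12a5 (the neuronal chloride exporter). Grk1, the rhodopsin kinase of photoreceptors, was at 0.43, and Rgs9, which speeds the shut-off of G proteins in photoreceptors and striatum, also at 0.43. Nptx2, a pentraxin that clusters glutamate receptors at synapses, was at 0.42. Chrnb2 had 1.11, 1.11 and 1.10 in mutant 1, wild-type 1 and wild-type 2, against 0.831, 0.852 and 0.903 in mutant 2, mutant 3 and wild-type 3. Its high pools lay closer together than its low ones. Mapt, the axonal protein tau, and Ncam1, a neural adhesion molecule, are transcribed in embryonic neurons too and were at 0.35 and 0.38. Other probe sets of Ncam1 were at -0.23 to 0.22, 1 with the first 3 pools all above the rest and 1 all below. Those of Mapt were at 0.07 to 0.35, with sides that overlapped. The lists of neuron and neural tube genes, given further below, had medians under 0. The smell and pheromone receptor genes Olfr154 and Vmn1r46 were at 0.35 and 0.38.

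Muscle genes numbered 5. Myl4 encodes the atrial and embryonic myosin light chain, Mb myoglobin, Ppp1r3a the subunit that takes protein phosphatase 1 to muscle glycogen, and Hspb3 a small heat shock protein of muscle. Myl4 had 1.23, 1.24 and 1.06 in mutant 1, wild-type 1 and wild-type 2, against 0.936, 0.838 and 0.883 in mutant 2, mutant 3 and wild-type 3. Ppp1r3a had 1.35, 1.14 and 1.08 in mutant 1, wild-type 1 and wild-type 2, against 0.923, 0.870 and 0.771 in mutant 2, mutant 3 and wild-type 3. In both genes wild-type 2 was the lowest of the high pools. A second probe set of Myl4 differed by 0.04 only.

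Genes of signalling and transcription in development numbered 14, with a median difference of 0.39. Cdk6, a kinase that takes cells from G1 into S phase, had 1.23, 1.11 and 1.33 in mutant 1, wild-type 1 and wild-type 2, against 0.892, 0.773 and 0.852 in mutant 2, mutant 3 and wild-type 3. Ndst4, which sulphates heparan sulphate chains, had 1.12, 1.15 and 1.28 against 0.845, 0.856 and 0.876 in the same order, and the gap between its sides of 0.36 was the widest of all members. Pcsk5, a convertase that activates growth factor precursors, was at 0.46, and Bmp2k, a kinase induced by BMP2, at 0.43. The only other probe set of Bmp2k had the first 3 pools all below the rest, at -0.30, and the 3 others of Pcsk5 were at -0.13 to 0.25. Kremen1, a receptor for the Wnt inhibitor Dkk1, was at 0.37, Rspo2, a secreted enhancer of Wnt signalling, at 0.35 and Lin28a, an inhibitor of let-7 maturation, at 0.35.

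Genes with another or an uncertain role included Myo1h, a myosin heavy chain (0.53), the predicted gene Gm6787 (0.46), Lman1l (0.46) and Csdc2, an RNA-binding cold shock protein (0.44).

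The 30 genes of general cell machinery had a median difference of 0.38. Among them were Rpl27a of the ribosome, Mrpl57 (0.52) and Mrpl35 of the mitochondrial ribosome, Ppp2r2d, a regulatory subunit of protein phosphatase 2A (0.43), Polr2a, the largest subunit of RNA polymerase II, and Med24 of the Mediator complex. Rbm39 and Rbm25 act in splicing and Dhx9 is an RNA helicase. Actb and Tubb5 encode cytoskeletal actin and tubulin, Arf1 and Dnm2 act in membrane traffic, Pdia4 and Hyou1 are chaperones of the endoplasmic reticulum, and Mcm3 is part of the replicative helicase. Rpl27a had 1.17, 1.01 and 1.17 in mutant 1, wild-type 1 and wild-type 2, against 0.816, 0.986 and 0.462 in mutant 2, mutant 3 and wild-type 3. Rbm39 had 1.02 in each of the 3 high pools, against 0.902, 0.985 and 0.499 in mutant 2, mutant 3 and wild-type 3. In both genes wild-type pool 3 was far below the other low pools, and mutant pool 3 was close to wild-type pool 1, the lowest of the high pools. Wild-type pool 3 was the lowest for 18 of these 30 genes, and mutant pool 1 the highest for 24.

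Other probe sets of the same genes read the members a second time on the same arrays. Of the members, 84 had at least 1 more probe set, 168 in all, and 66 had none. The rule passed over these 168 because they differed less or because their sides overlapped, so they lie lower by choice. Their median difference was 0.01, with 87 higher and 81 lower in the first 3 pools. All of the first 3 pools lay above the others in 21 of the 168, which is 12.5%, and below them in 28, which is 16.7%, beside the 10.7% and 16.7% over all probe sets given above. For the 150 genes with the largest difference in the opposite direction, 268 other probe sets had a median of -0.11, and 80 of them, 29.9%, had the first 3 pools all below.

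**Figure D2:**
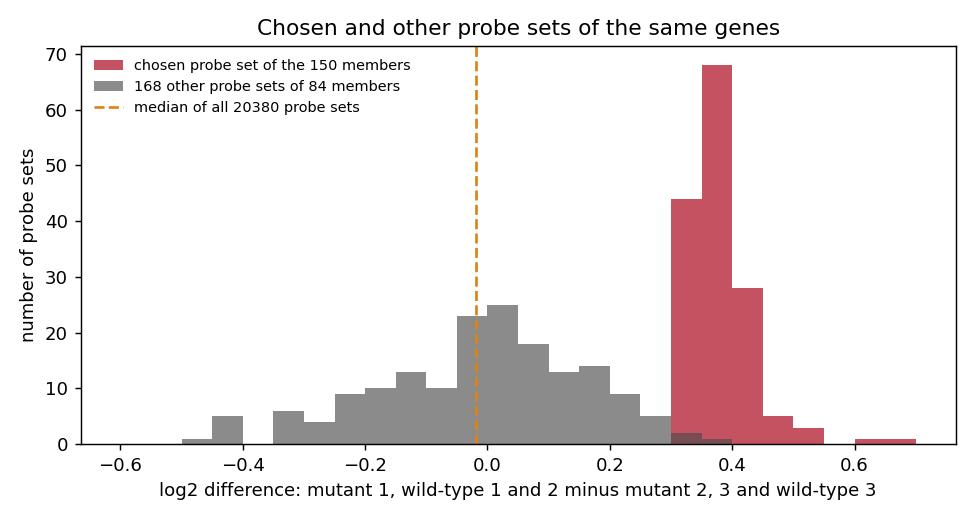
Number of probe sets (vertical axis) by log2 difference between the 2 sides of the split (horizontal axis), for the 150 chosen probe sets (red) and the 168 other probe sets of 84 of the same genes (grey). The chosen ones start at 0.34 by the rule, and the others lie around 0.01.

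The other probe sets fell out differently by role. Those of the general machinery genes, 78 from 28 genes, had a median difference of -0.06, and 21 of them had the first 3 pools all below against 6 all above. The other 90, from 56 members, had a median of 0.05, with 7 all below and 15 all above. The difference between these roles was not tested. Dhx9 had its first 3 pools at 1.26, 1.08 and 1.20 by the chosen probe set, against 0.863, 0.849 and 0.918 in mutant 2, mutant 3 and wild-type 3. By another probe set of Dhx9 the same pools were at 0.771, 0.780 and 0.987, against 1.07, 1.09 and 1.01. The 2 readings of 1 gene thus had opposite signs (0.43 and -0.33 on the log2 scale), and both kept the sides apart.

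Actb showed the same contrast between probe sets in a milder form. Its chosen probe set had 1.16, 1.07 and 1.15 in mutant 1, wild-type 1 and wild-type 2, against 0.903, 0.931 and 0.722 in mutant 2, mutant 3 and wild-type 3. Its other probe set had 1.021, 0.946 and 0.905 in mutant 1, wild-type 1 and wild-type 2, against 1.073 in wild-type 3 and values close to 1 in mutant 2 and mutant 3, so the sides overlapped. Tubb5 was at 0.41 by the chosen probe set and at -0.02 by the other. Polr2a was at 0.40 and -0.01, and Arf1 at 0.38 against -0.06 for each of 2 others. Eif2d, which takes part in translation initiation, was at 0.40 by the chosen probe set, and all 3 others had the first 3 pools below the rest (-0.29 to -0.14). Rbm39 had 8 further probe sets, all negative (-0.42 to -0.17), of which 4 had the first 3 pools all below. Rbm39 and Mtdh were each also among the 150 genes with the largest difference in the opposite direction, by another probe set (-0.42 and -0.49).

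**Figure D3:**
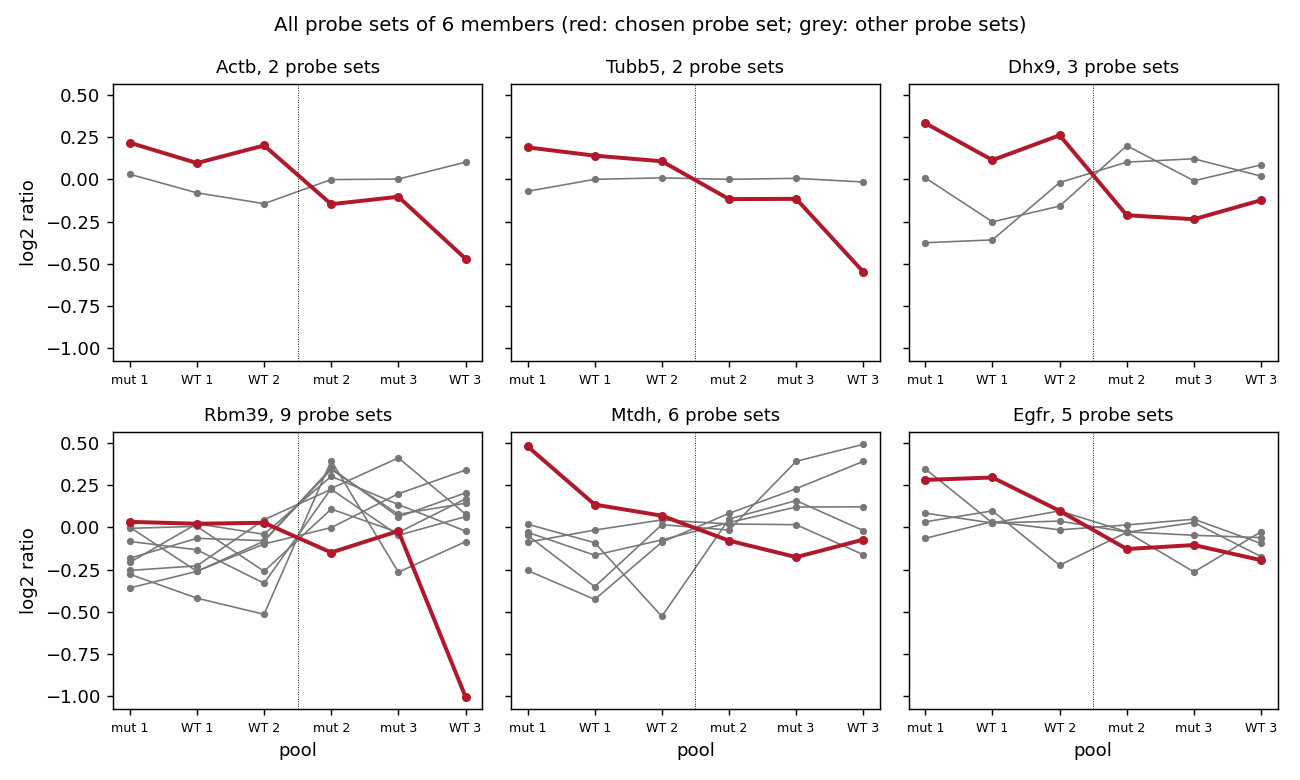
Log2 ratio (vertical axis) by pool (horizontal axis) for every probe set of 6 members, the chosen one in red and the others in grey. For Actb and Tubb5 the grey line stays near 0, for Dhx9, Rbm39 and Mtdh most grey lines run the opposite way, and for Egfr 2 of 4 grey lines keep the direction of the red one.

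Members read alike by all their probe sets were few. Of the 84 members with more than 1 probe set, 8 had the first 3 pools above the rest in every probe set, 2 in each. They were Rpl27a, Rgs9, Dlx3, Mllt6, Capn8, Pfpl, Bhlha15 and Phf19. In each of them the chosen probe set is above by the rule, so only the other probe set was free to differ. Over all probe sets 10.7% had these pools all above, and the same count over all genes was not made. Capn8 encodes a calpain protease of the stomach, and Bhlha15, also called Mist1, a transcription factor of secretory gland cells. Capn8 was at 0.36 and 0.29 and Pfpl at 0.34 and 0.33. Dlx3 was at 0.37 and 0.13, and Rpl27a at 0.63 and 0.14. Egfr, the epidermal growth factor receptor, had 3 of 5 probe sets with the first 3 pools above the rest (0.37, 0.24 and 0.11), and the remaining 2 were near 0.

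Sequence near the start sites was compared because it does not depend on the array values. A promoter window of 250 bases before to 50 after the start was given by RefSeq (build GRCm38.p6) for 113 of the 150 members. Promoters rich in CG dinucleotides are typical of genes used in most cells, and promoters poor in them of genes restricted to particular tissues. The ratio of observed to expected CG (from the C and G counts of the window) had a median of 0.514 over the members, 0.854 over 126 of the 150 genes with the opposite difference, and 0.706 over 9882 measured genes. It exceeded 0.6 in 43.4% of members' promoters, against 84.1% for the opposite genes and 61.2% of all. The median GC content was 56.0% for the members and 59.3% for all measured genes. The TATAAA motif, searched on both strands and unable to overlap a CG, was found in 15% of members' promoters and 10.1% of all.

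The promoters of 4 members are printed because they show both ends of that range, beside array differences of 0.35 to 0.40. The sequences run 5′ to 3′ on the minus strand of chr5:145879805-145880104 for Cyp3a11, chr14:56262285-56262584 for Gzmb, chr11:59228218-59228517 for Arf1 and chr11:69758584-69758883 for Polr2a (GRCm38.p6). Capitals mark CG dinucleotides and TATAAA read on either strand.
Cyp3a11: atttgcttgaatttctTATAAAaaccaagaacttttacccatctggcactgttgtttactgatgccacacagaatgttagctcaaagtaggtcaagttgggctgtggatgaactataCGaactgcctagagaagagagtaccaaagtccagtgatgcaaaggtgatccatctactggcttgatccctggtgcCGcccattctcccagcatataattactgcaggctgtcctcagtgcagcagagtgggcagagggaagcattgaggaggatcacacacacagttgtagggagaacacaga
Gzmb: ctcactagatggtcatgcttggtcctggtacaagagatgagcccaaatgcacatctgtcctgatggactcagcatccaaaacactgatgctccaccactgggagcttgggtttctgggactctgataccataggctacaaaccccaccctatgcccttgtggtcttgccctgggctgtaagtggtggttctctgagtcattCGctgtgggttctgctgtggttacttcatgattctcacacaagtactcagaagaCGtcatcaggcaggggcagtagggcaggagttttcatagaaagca
Arf1: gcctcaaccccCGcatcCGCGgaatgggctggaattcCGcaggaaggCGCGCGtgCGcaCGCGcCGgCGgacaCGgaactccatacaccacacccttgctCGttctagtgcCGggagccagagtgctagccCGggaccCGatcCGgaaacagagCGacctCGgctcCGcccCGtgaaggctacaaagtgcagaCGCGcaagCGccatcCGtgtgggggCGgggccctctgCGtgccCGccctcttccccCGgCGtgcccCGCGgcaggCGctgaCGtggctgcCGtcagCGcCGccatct
Polr2a: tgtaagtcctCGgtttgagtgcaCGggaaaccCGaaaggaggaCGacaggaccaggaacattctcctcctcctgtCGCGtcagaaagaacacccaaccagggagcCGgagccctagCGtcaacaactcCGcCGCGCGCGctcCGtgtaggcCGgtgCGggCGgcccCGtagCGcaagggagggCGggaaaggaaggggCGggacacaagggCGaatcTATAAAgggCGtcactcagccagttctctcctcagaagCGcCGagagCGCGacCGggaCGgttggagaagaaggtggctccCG
The windows of Cyp3a11 and Gzmb held 2 CG each, those of Arf1 and Polr2a 38 and 30. TATAAA was found in those of Cyp3a11 and Polr2a.

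CG content differed between the roles given above. Among members with a window, 24 of 26 general machinery genes exceeded the ratio of 0.6, against 1 of 10 liver and kidney genes, 1 of 10 immune genes and 1 of 17 genes of skin and other epithelia. The median was 0.916 for the machinery genes, 0.165 for liver and kidney genes, 0.294 for immune genes and 0.225 for epithelial genes. Genes of neurons and retina were between them, with 8 of 15 over 0.6. Without the machinery genes 28.7% of 87 members were over 0.6.

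**Figure D4:**
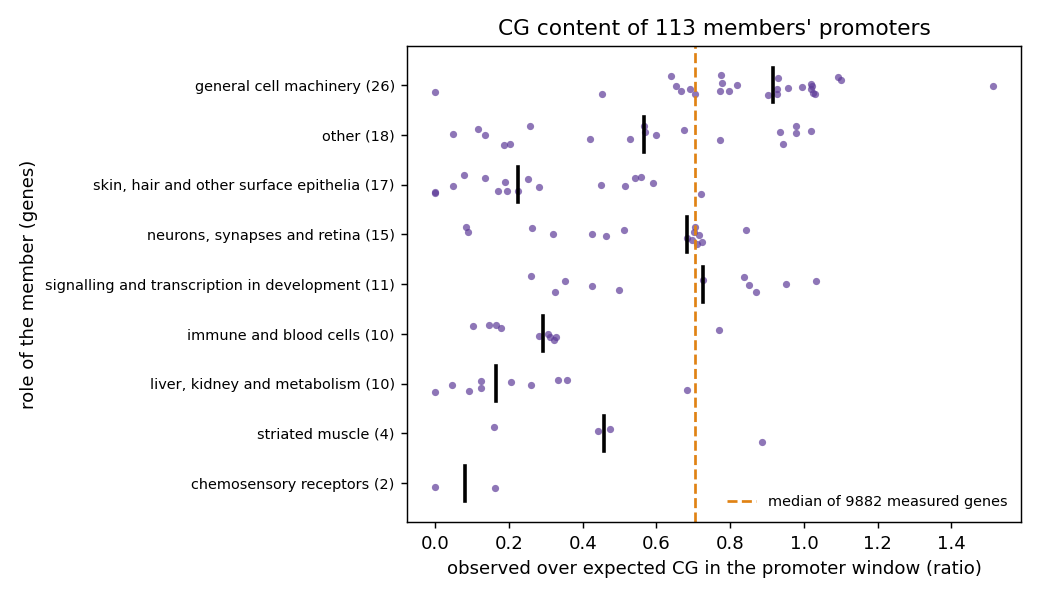
Ratio of observed to expected CG in the promoter window (horizontal axis) of 113 members, by role (vertical axis, points are genes and black bars medians), with the median of 9882 measured genes as a dashed line. General machinery genes sit around 0.916, and the medians of liver, immune and epithelial genes are 0.165, 0.294 and 0.225.

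The position of genes and the kind of probe set were recorded as well. Chromosome 11 held 11.3% of the members and 8.40% of all measured genes, and chromosome 5 held 10.7% and 6.23%. Probe sets whose names carry no letter for shared or similar sequence made up 86.0% of the members' probe sets and 69.2% of all. Only 2 members, Napb and Hao2, had a row median below 1, where the reference of the ratio is of another kind, against 5.84% of all probe sets.

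Lists of genes by pathway and cell type were set along the same split, with the mean of a gene's probe sets as its value. Over all 12393 genes the median difference was -0.01, 47.4% were higher in the first 3 pools, 12.1% had these pools all above and 17.3% all below. The 39 lists held 14 of the 150 members, which is 9.33%, beside 9.16% of all measured genes, so the members' share was near that of all genes. Of the 150 genes with the largest opposite difference 22 were in a list. The list with the highest median was that of macrophages and blood cells, at 0.10, with 15 of 18 genes higher and 4 with the first 3 pools all above. Its mean log2 level was 0.04, 0.01 and 0.02 in mutant 1, wild-type 1 and wild-type 2, against -0.02, -0.09 and -0.10 in mutant 2, mutant 3 and wild-type 3, and its part in the members' difference was not tested. Lateral plate and limb genes (0.07, 15 of 20 higher), intermediate mesoderm (0.04, 10 of 15), endoderm and yolk sac (0.03, 19 of 30) and heart muscle (0.03, 21 of 31) followed.

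Lists of machinery present in every cell lay on the other side of 0. Proteasome genes had a median of -0.14, with 28 of 31 lower and 17 with the first 3 pools all below. Splicing factors were at -0.14 (51 of 56 lower), the respiratory chain at -0.13 (50 of 52), translation factors at -0.12 (28 of 30) and DNA replication at -0.11 (40 of 43). Ribosomal protein genes were at -0.07, with 31 of 40 lower. By the mean of their probe sets, the value the lists use, Rbm39 was at -0.23, Rbm25 at -0.10, Dhx9 at -0.04 and Mcm3 at -0.04, although the chosen probe set of each is positive by the rule. The same mean was 0.39 for Rpl27a, 0.21 for Pdia4, 0.16 for Actb and 0.08 for Arf1. Of the somite derivatives, sclerotome was at 0.02 and skeletal myotome at -0.03.

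**Figure D5:**
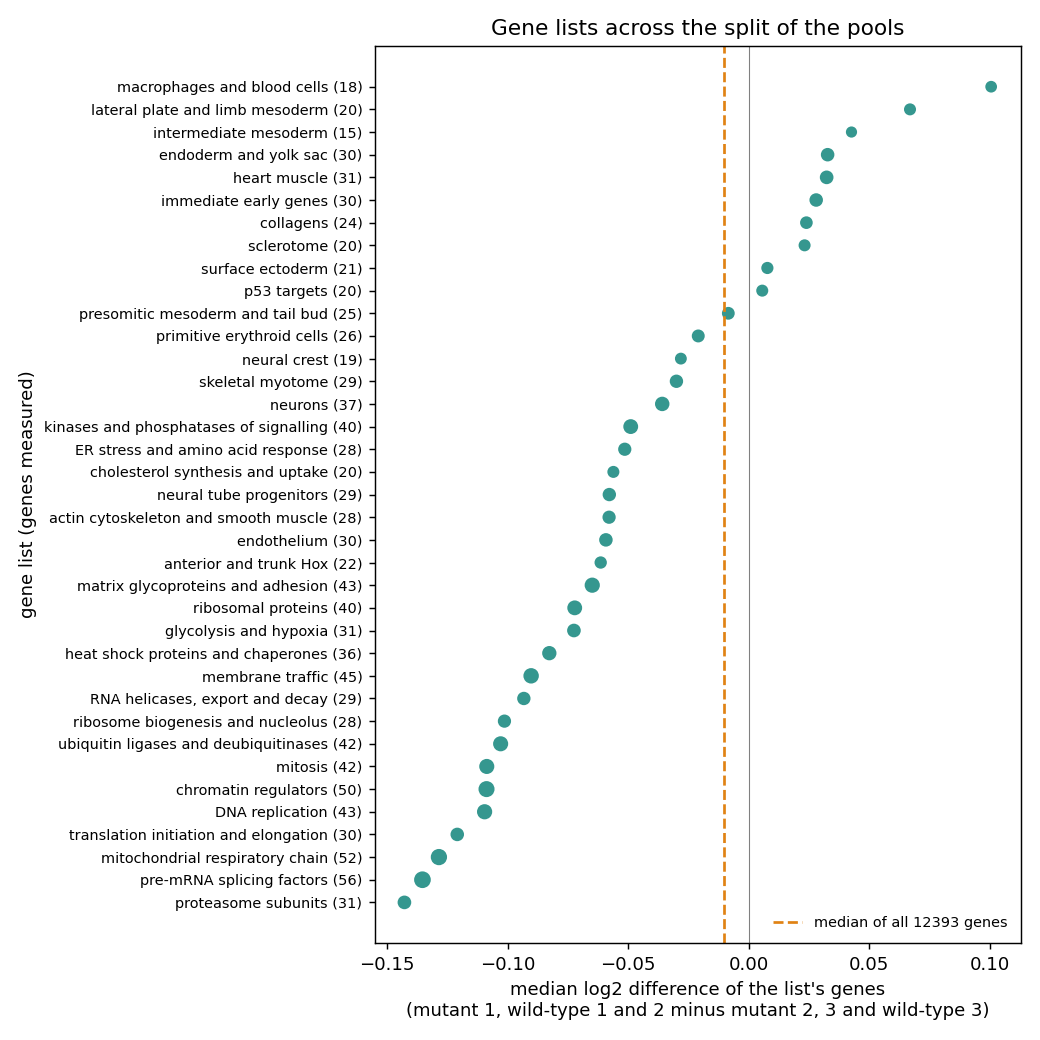
Median log2 difference between the 2 sides of the split (horizontal axis) for the 37 gene lists with at least 10 measured genes (vertical axis, point area grows with the number of genes), with the median of all 12393 genes as a dashed line. Lists run from -0.14 for the proteasome to 0.10 for macrophages and blood cells.

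Genotype was compared over all 22626 probe sets that are not controls, with limma (3 mutant against 3 wild-type pools, two-sided). No probe set had a Benjamini-Hochberg adjusted p under 0.05, which is 0% of those tested, and 595 had an unadjusted p under 0.05, which is 2.63%. Of the 150 members, 0 passed that threshold, and 2, or 1.33%, had an unadjusted p under 0.05 in limma. The 2 became 37 without mutant pool 1, 26 without wild-type pool 3, 1 without mutant pool 3 and 0 without any of the other pools, and 16 with the replicate number as a block. That was 24.7% of members beside 4.48% of all probe sets without mutant pool 1, and 17.3% beside 5.43% without wild-type pool 3. It was 0.667% beside 2.17% without mutant pool 3, and 10.7% beside 4.74% with the block. The choice bears on these counts. It puts wild-type pools 1 and 2 above mutant pools 2 and 3 in every member. This by itself raises the counts without mutant pool 1 or without wild-type pool 3, and no reading of genotype is drawn from them. With mutant pool 1 above wild-type pool 3 and wild-type pool 1 above mutant pool 2, a gene cannot have its genotypes apart. Accordingly 0 members had all mutant pools below or above all wild-type pools, beside 3.33% below and 4.14% above over all probe sets. The first 3 pools also hold 2 wild-type pools and 1 mutant pool, which moves the members' genotype difference below 0 by itself: the median of mutant minus wild-type was -0.07, and 110 of 150 were lower in the mutant.

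The members with the smallest p were Ptgfr, the receptor for prostaglandin F2 alpha, and Clmn. Ptgfr had ratios of 1.01, 0.762 and 0.910 in the mutant pools and 1.27, 1.22 and 0.988 in the wild-type pools. Mutant pool 1 lay above wild-type pool 3, and the log2 difference was -0.37 (SE 0.127, limma adjusted p = 0.999959). Clmn was at -0.33 (SE 0.126), Bmp2k at -0.32, Pkhd1l1 at -0.27 and Fgf7, a growth factor for epithelia, at -0.25. In the positive direction the smallest p values belonged to Rbm39 (0.27, SE 0.224), Gm6787 (0.20), Rpl27a (0.26, SE 0.278), Phf19, a Polycomb partner (0.13), and Klrg1 (0.14), all at the same adjusted p. Without wild-type pool 3 the difference of Rbm39 was -0.07 and that of Rpl27a -0.15. Dll3 itself had a ratio of 0.983 ± 0.038 in mutant and 0.997 ± 0.034 in wild-type pools (SD, n = 3 each). Where its probe set lies in the altered gene was not checked here.

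Within number 1 and within number 3 both genotypes were on the same side, so the choice did not fix the sign of these differences. The values of these pools still entered the choice, which bears on the counts that follow. In number 1 the median of mutant minus wild-type over the members was 0.06, with 101 of 150 higher in the mutant, beside -0.01 and 47.4% over all probe sets. In number 3 the median was -0.03, with 69 of 150 higher in the mutant, beside 0.00 and 49.6%. In number 2, where the choice fixes the sign, the median was -0.27. These are differences between single pools and carry no test.

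Control probe sets and sex-linked genes were read in the same pools. Of 6 probe sets for the bioB spike, 5 had their 2 lowest values in mutant pool 3 and wild-type pool 3. In each of those 5 mutant pool 2 was above both, and the sides of the split overlapped in all 6. The log2 difference between the sides was 0.28 to 0.40 in those 5 and 0.05 in the remaining bioB probe set. The members' median was 0.37. The 3′ minus 5′ log2 difference of Gapdh was -0.03, 0.07 and -0.01 in mutant 1, wild-type 1 and wild-type 2, against -0.07, 0.01 and -0.07 in mutant 2, mutant 3 and wild-type 3. That of beta-actin stayed between -0.04 and 0.04 in all pools. That of 18S rRNA was -0.04, 0.32 and -0.09 in mutant 1, wild-type 1 and wild-type 2, against -0.56, 0.26 and 0.24 in mutant 2, mutant 3 and wild-type 3. Of 64 control probe sets, 8 had the first 3 pools all above (0.11 to 0.23 on the log2 scale) and 4 all below. The 8 were bacterial control probe sets (DapX-5, PheX-3, PheX-5, ThrX-M, Bs-phe-3, Bs-thr-3 and Bs-thr-5) and a probe set of mouse pyruvate carboxylase. The 4 were spike probe sets, BioDn-5 at -0.89, CreX-5 at -0.35, bioD-5 at -0.32 and bioD-3 at -0.13. In BioDn-5 the sides came closest at 0.881 in mutant 1 and 1.119 in mutant 2. The sides overlapped in BioDn-3 (0.03) and CreX-3 (-0.06). The part of these controls in the members' difference was not tested. Kdm5d, a Y-linked histone demethylase, is a member at 0.42, and its other 2 probe sets were at 0.08 and 0.17 with sides that overlapped. Y-linked Eif2s3y was at -0.06, and Uty at 0.09 and -0.05. X-linked Xist was at -0.54, -0.16 and -0.44 by its probe sets. Xist by its first probe set had 1.16, 0.836 and 0.376 in mutant 1, wild-type 1 and wild-type 2, against 2.29, 1.86 and 0.266 in mutant 2, mutant 3 and wild-type 3, so its sides overlapped. By genotype these values had all mutant pools above all wild-type pools. Mutant minus wild-type was 1.96 on the log2 scale, and 0.80 and 1.15 by other probe sets of Xist. It was -0.48 for Eif2s3y, -0.16 and -0.43 for Uty, and -0.40 to -0.07 for Kdm5d. Whether the sex mix of the pools differed between genotypes was not tested.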

How the data were processed

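RNA of 3 Dll3 mutant and 3 wild-type pools was hybridised to 1 MOE430A array each. The authors deposited 1 table of 22690 probe sets, whose values are linear ratios (0.266 to 2.498) within a probe set. This reading comes from the values: the median over the 6 pools is 1 (within 0.0015) in 93.4% of rows and lower in 1497. Per the submitters' processing notes, the tools are RMA and MAS5, listed with no version or role, and no source says how arrays were scaled. Without signal levels neither detection nor background could be read, and precision is limited by having 6 arrays.

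The 64 control probe sets were left out of tests. Of the rest, 20380 named 1 gene in the platform annotation, 691 several and 1555 none, and only the first kind was used for genes. Symbols were updated through gene identifiers for 20351 of them (GRCm38.p6 gene table). Log2 ratios were used without a pseudocount or filter. limma 3.58.1 (R 4.3.3) was fitted to genotype (genotype as the single term, moderated by eBayes, Benjamini-Hochberg over 22626 probe sets), a script tested on simulated data. Where a gene had several promoter windows, the first listed was used. Members, lists and roles were chosen with earlier results of these data known. Genes were named as follows: the 20 members of largest difference, up to 6 members of each list, the 5 genes on each side of the limit, the 5 of smallest genotype p in each direction, members whose probe sets all keep the sides apart, Dll3 and sex-linked genes. Other members were named for their function after their values were seen. The alternatives tried were a block on replicate number, a variance trend, array weights, other scalings, other probe set rules and each pool left out.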

Additional observations from a re-analysis of the deposited data

How the results depend on the processing

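Of the 150 members, 140 were chosen again after quantile normalization, 148 after median centring, 141 without probe sets ending in _x_at or _s_at and 148 without rows of median below 1. With the mean of a gene's probe sets 72 were chosen again, and when genes were ranked by the gap between the sides 66. Leaving out each pool kept 85 to 103, and fewer pools then enter the rule; the lowest counts were 85 without mutant pool 1, 86 without wild-type pool 3 and 87 without mutant pool 3. The median difference of the genes chosen in each setting was 0.32 to 0.43, which the choice of the largest differences sets. Between genotypes 0 probe sets passed the adjusted threshold in limma (595 at an unadjusted p under 0.05), and this count was 1 with the replicate block (Uncx), 1 with array weights (Uncx) and 0 to 1 with each pool left out (Xist, without wild-type replicate 1). No member passed it in any of these fits. The members at an unadjusted p under 0.05 numbered 2 (1.33%, beside 2.63% of all probe sets). They numbered 16 with the replicate block (10.7%, beside 4.74%) and 4 with the variance trend (2.67%, beside 2.62%). With array weights they numbered 44 (29.3%, beside 7.82%), and with quantile normalization 5 (3.33%, beside 2.96%). With each pool left out they numbered 0 to 37. The highest counts were 37 without mutant replicate 1 (24.7%, beside 4.48%) and 26 without wild-type replicate 3 (17.3%, beside 5.43%). All of them were lower in the mutant. The choice bears on these counts, because it puts wild-type pools 1 and 2 above mutant pools 2 and 3 in every member. The replicate numbers were not taken as pairs, because the sources do not say that a number marks a shared litter or day. Over the probe sets the residual correlation of equal numbers was 0.37, -0.02 and 0.37 for numbers 1, 2 and 3. For unequal numbers it ran from -0.43 to 0.20. Why pools of equal number 1 or 3 went together was not tested. The fit with the block raised the unadjusted count over all probe sets to 1072 (1770 with array weights). The genotype difference of some uncalled members changed sign. With array weights the difference of Rpl27a was -0.0759, of Phf19 -0.0178 and of Klrg1 -0.0035. With each pool left out Rbm39 ran between -0.0702 and 0.445, Gm6787 between -0.0289 and 0.349, Rpl27a between -0.151 and 0.517, Phf19 between -0.0290 and 0.210 and Klrg1 between -0.0828 and 0.273. The values below 0 came without wild-type replicate 3, and for Klrg1 without mutant replicate 1; the cause was not tested. Whether a member is above background cannot be read from ratios.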
